A study of Mus musculus with 8 samples.

Results

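The genes described here carry, end and answer the cyclic AMP (cAMP) signal inside a cell. They are 39 genes for G protein subunits, adenylyl cyclases, subunits, anchors and inhibitors of protein kinase A (PKA), phosphodiesterases and cAMP-responsive transcription factors. They were chosen by gene name, and 34 of the 39 had at least 1 probe set annotated to them alone, 73 probe sets in all. Of the 34, 32 passed the detection filter for testing (a Present call in at least 3 of 8 arrays) in 57 probe sets, out of 9126 genes and 16292 probe sets tested in the series. Gnaq and Pde2a were Present in 1 of 8 hearts each and were not tested. Adcy5, Prkar2b, Pde3b, Pde4d and Atf1 were not analysed here.

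RNA was taken from single embryonic mouse hearts at E10.5 and hybridised to Affymetrix Mouse 430A 2.0 arrays. Hearts of 4 embryos were Dbh-/- (KO), lacking a working gene for dopamine beta-hydroxylase, the enzyme that converts dopamine to noradrenaline. Hearts of 4 embryos were Dbh+/+ (WT). Embryos were matched for age and size, per the labels, and the labels name no further allele, strain or agent. Each title also carries a number that the labels leave unexplained. It is 541 in KO 3, KO 4, WT 3 and WT 4, 569 in KO 1, KO 2 and WT 2, and 570 in WT 1.

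In this pathway a ligand such as noradrenaline binds a beta-adrenergic receptor, which activates the stimulatory G protein and, through it, adenylyl cyclase. The enzyme makes cAMP, which releases the catalytic subunits of PKA from the regulatory subunits and opens the Epac exchange factors. Phosphodiesterases break cAMP down, inhibitory G proteins hold the cyclases back, and in heart muscle PKA raises the rate and force of contraction.

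The arrays were not on a common scale. Their trimmed mean signals lay between 209.8 and 316.2, and 65.2% to 71.6% of probe sets were Present. Dbh was Absent in 8 of 8 hearts, so its probe set does not check the genotype labels. Heart muscle markers such as Myh6, Myl7 and Tnnt2 were Present in every heart. WT 3 stood apart, with a summed signal of 7434 over 6 liver and endoderm markers, against at most 121 in any other heart. Its Myh7 signal was 306, against 2431 to 4836 in the others. In KO 3, KO 4 and WT 3, Crabp1, a retinoic acid binding protein of neural crest, had signals of 1074 to 1283, against at most 156 in the other 5 hearts.

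The first comparison asked whether any of these genes differ between KO and WT hearts. By limma, 0 of the 32 members had an adjusted p under 0.05, as did 0% of all probe sets tested. None had an unadjusted p under 0.05 either, against 1.33% of all probe sets. Signals of KO and WT hearts overlapped for every one of the 32, where 0.454% of all probe sets had no overlap. The log2 difference, KO minus WT, was above 0 for 16 members and below 0 for 16. Over all 9126 genes it was above 0 for 4987 and below 0 for 4139. The members' median was -0.01, against 0.02 over all genes. The differences ran between -0.36 for Pde8a and 0.58 for Adcy7, in log2 units of signal + 16. The 95% interval lay within 1 log2 unit of 0 for 31 of the 32, both as deposited and after quantile normalization between arrays. The exception was Adcy7. After quantile normalization 0 members had an unadjusted p under 0.05, against 2.14% of all probe sets. The median 95% interval reached 0.55 log2 units to either side of a member's difference as deposited, and 0.42 after quantile normalization. These hearts are bulk samples, in which fewer cells of a type and less RNA per cell cannot be told apart.

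**Figure D1:**
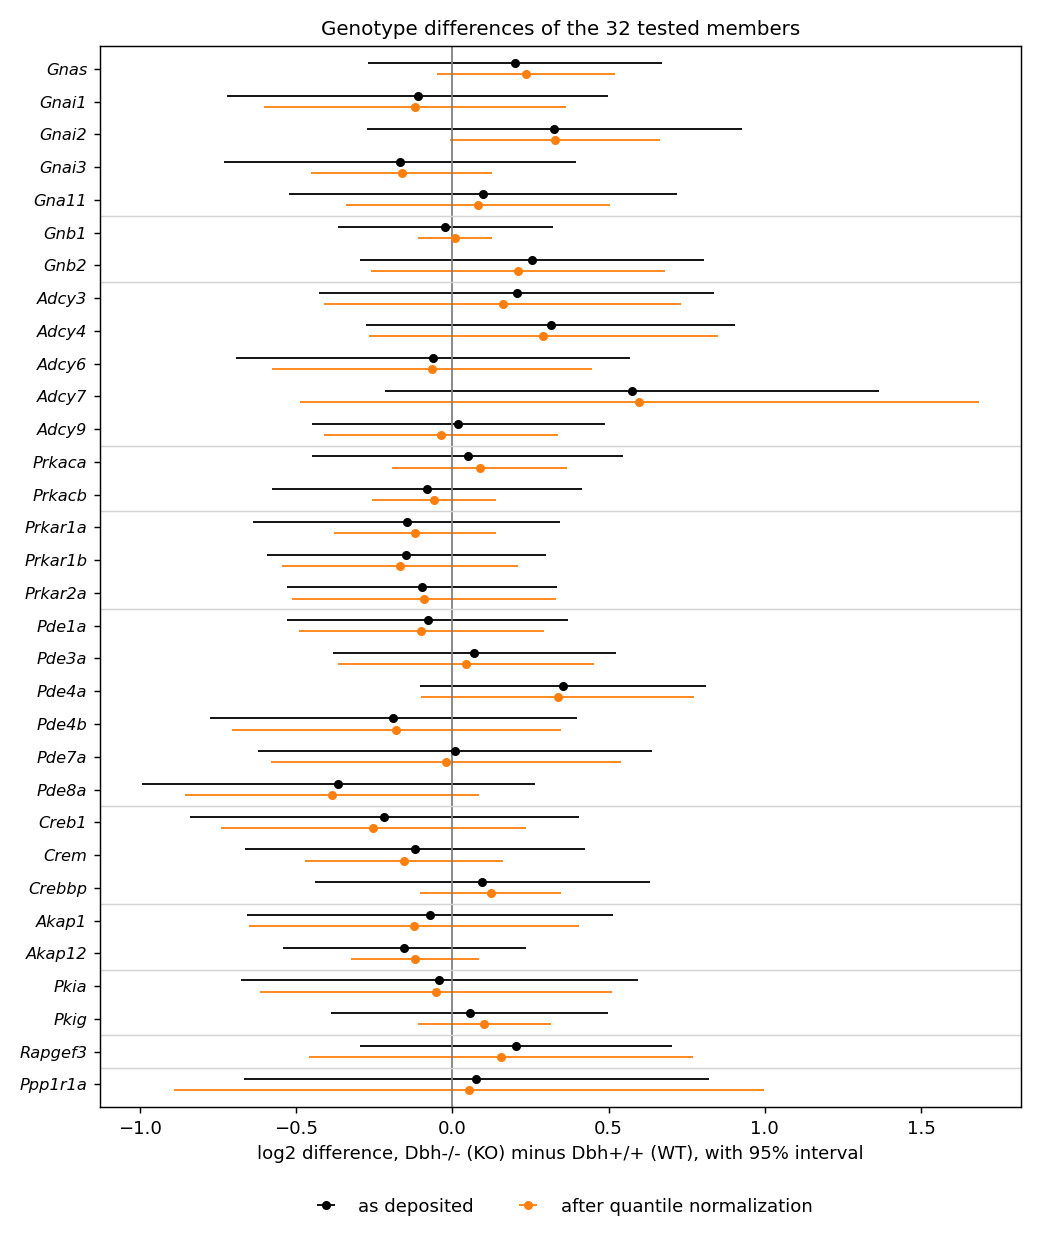
Log2 difference, KO minus WT, of the 32 tested members in order of role, with 95% intervals (n = 4 each), as deposited (black) and after quantile normalization (orange). Grey lines part the roles, and every interval covers 0.

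Gnas, which codes for the stimulatory G protein alpha subunit that couples beta-adrenergic receptors to adenylyl cyclase, was Present in all 8 hearts. Its signals were 1986, 2926, 3115 and 2132 in KO 1 to KO 4, against 2874, 2225, 2432 and 1415 in WT 1 to WT 4. The groups overlapped, with WT 4 the lowest of all and KO 3 the highest. The mean ± SD over 4 hearts was 2539 ± 564 in KO and 2237 ± 611 in WT, and the log2 difference was 0.20 ± 0.23 (SE, unadjusted p = 0.391 by limma). A second tested Gnas probe set, weaker in signal, had a difference of 0.01 ± 0.27.

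The inhibitory alpha subunits, which restrain adenylyl cyclase, pointed in no common direction. Gnai2 had signals of 533, 813, 684 and 445 in KO 1 to KO 4, against 708, 453, 526 and 307 in WT 1 to WT 4. KO 2 was the highest and WT 4 the lowest, with overlap between. Its difference was 0.33 ± 0.30 (SE, unadjusted p = 0.277 as deposited and 0.0536 after quantile normalization, by limma). It was 0.44 within the 541 hearts and 0.52 within the 569 hearts. Gnai1 had signals of 585, 717, 441 and 302 in KO 1 to KO 4, against 761, 477, 508 and 417 in WT 1 to WT 4, and its difference was -0.11 ± 0.30. Its 3 lowest hearts, KO 4, WT 4 and KO 3, all carried the title number 541. Gnai3 had a difference of -0.17 ± 0.28, with all 8 signals between 464 and 788.

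Gna11, an alpha subunit that activates phospholipase C, had a difference of 0.10 ± 0.31. Gnaq, its close relative with the same target, was Present in 1 heart, with signals between 0.745 and 11.3. The deposited annotation names that Gnaq probe set Pbp1, so a reading of it as Gnaq rests on the platform annotation. The beta subunits, which bind the alpha subunits and also act on channels and cyclases, were both detected in every heart. Gnb2 had signals of 48.8, 62.8, 55.7 and 35.2 in KO 1 to KO 4, against 52.4, 57.5, 28.0 and 25.9 in WT 1 to WT 4, a difference of 0.25 ± 0.27 (SE). WT 3 and WT 4 were the lowest, and KO 4 came next. Gnb1 had the smallest SD over the 8 hearts of the 32 members, with signals of 4425 to 6610.4 in KO and 5212 to 6040.1 in WT and a difference of -0.02 ± 0.17.

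Among the adenylyl cyclases, Adcy7 had the largest genotype difference of the 32 members and the widest interval. Adcy7 is a cyclase stimulated by G protein beta and gamma subunits and is known from blood cells and brain. Its signals were 311, 778, 1491 and 812 in KO 1 to KO 4, against 388, 206, 1144 and 616 in WT 1 to WT 4. KO 3 and WT 3 were the highest hearts, and WT 2, KO 1 and WT 1 were the lowest, so the genotypes overlapped over most of the range. The difference was 0.58 ± 0.39 (SE, 95% interval -0.22 to 1.37, unadjusted p = 0.148 by limma). It was 0.38 within the 541 hearts and 1.20 within the 569 hearts. Leaving out WT 3 gave 0.97, with an adjusted p of 0.328, and leaving out WT 2 gave 0.18. One of the other Adcy7 probe sets, with signals of 11.4, 21.9, 36.1 and 31.0 in KO hearts and 9.31, 1.23, 24.99 and 11.3 in WT hearts, had a difference of 0.59 ± 0.25 (unadjusted p = 0.0255, adjusted p = 0.99998 by limma). It was the 1 probe set among the 57 with an unadjusted p under 0.05, against 1.33% of all probe sets. It was Present in 4 KO and 2 WT hearts, so KO hearts met the filter of 3 arrays by themselves and WT hearts did not.

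The remaining cyclases gave smaller differences. Adcy4, which like Adcy7 responds to beta and gamma subunits, had signals of 44.8, 76.8, 61.3 and 35.7 in KO 1 to KO 4, against 50.5, 61.1, 43.8 and 14.7 in WT 1 to WT 4. Only WT 4 lay below the KO range, and the difference was 0.32 ± 0.29. Adcy6, with Adcy5 a main cyclase of heart muscle, had signals of 344, 508, 455 and 220.5 in KO hearts and 546, 382, 250.4 and 403 in WT hearts. Its lowest heart was KO 4 and its highest WT 1, and the difference was -0.06 ± 0.31. Adcy3, a cyclase best known from olfactory neurons and cilia, had signals of 47.1, 91.9, 92.8 and 35.8 in KO hearts and 85.1, 72.7, 44.8 and 23.8 in WT hearts. Its difference was 0.21 ± 0.31, but 2 of its 3 further probe sets were below 0, at -0.09 and -0.28, and 3 of its probe sets carry another gene's name in the deposited annotation. Adcy9, a widespread cyclase, had 0.02 ± 0.23 in 1 probe set and -0.07 ± 0.22 in the other.

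The kinase itself was evenly measured. Prkaca, the main catalytic subunit of PKA, had signals of 1603, 2313, 2094 and 1329.8 in KO 1 to KO 4, against 2339, 1929.6, 1703 and 1170.3 in WT 1 to WT 4. The ranges nearly coincided, and the difference was 0.05 ± 0.24 (SE, 95% interval -0.45 to 0.55). Prkacb, the second catalytic subunit, had a difference of -0.08 ± 0.24, with signals of 938 to 1343 in KO and 1019.7 to 1409 in WT. After quantile normalization the interval for Prkacb reached 0.20 log2 units to either side of -0.06.

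All 3 tested regulatory subunits, which hold the catalytic subunits inactive until cAMP binds, had differences below 0 and intervals that covered 0. Prkar1a, the regulatory subunit that most embryonic tissues use, had signals of 1384, 1805, 1355 and 998 in KO 1 to KO 4, against 1900.5, 1407, 1447 and 1314 in WT 1 to WT 4. KO 4 was the lowest and WT 1 the highest, and the difference was -0.15 ± 0.24. Its second probe set had 0.04 ± 0.29, the opposite sign. Prkar1b, better known from brain, and Prkar2a, which binds most anchoring proteins, were near the floor of the array, with signals under 20 in all 8 hearts and differences of -0.15 ± 0.22 and -0.10 ± 0.21. The authors' deposited table gives p = 0.00411 for another Prkar1b probe set, which was called Present in 0 of 8 hearts and was not tested here. The authors' deposited table holds a p under 0.05 for 1 more of the 73 member probe sets, a weak one of Gnai1 with p = 0.0394. Those 2 are 2.74% of the 73, against 1.24% (282 of 22690) of all probe sets in the authors' deposited table.

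Since Creb1 and its relatives bind the letters TGACGTCA, called the cAMP response element, the promoter windows of the members were searched for them. The windows, from RefSeq (build GRCm38.p6), run over the 250 bases before and 50 bases after each start site, and 26 of the 34 members had at least 1, 60 in all. The full element, which reads the same on both strands, was in 2 of the 60 windows and in 1.79% of all 32851 windows. Both windows belonged to Prkar1a and held the same copy, at chr11:109650889-109650918 on the plus strand, shown here because it is the single full element found among the members (element in capitals).
Prkar1a: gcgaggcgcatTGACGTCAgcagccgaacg
The element begins 49 bases before a Prkar1a start site and 38 bases after another that lies upstream. The shorter form TGACG, counted on either strand (so also as CGTCA) and also inside the full element, was in 36.7% of the members' windows and in 20.8% of all windows. Those shares are not like for like. Windows of 1 gene can recount the same letters, and the members had 60 windows for 26 genes, against 32851 windows for 27025 genes in all. Adcy7 held the short form once, on the minus strand, beginning 28 bases before a start site. The stretch around it, at chr8:88282953-88282979 and written on the plus strand, is shown because Adcy7 also passed the test by title number (short form in capitals).
Adcy7: gatcatagagcCGTCAggggggtgggg
A match of letters is a description of the window and not a site that was measured.

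PKA inhibitors and anchors differed no more. Pkia, a peptide that blocks the free catalytic subunit, had signals of 520.5, 691, 370.4 and 293 in KO 1 to KO 4, against 720.2, 518, 384 and 308 in WT 1 to WT 4. In each genotype the 541 hearts were the low pair, and the genotype difference was -0.04 ± 0.31. Pkig, another such inhibitor, had 0.06 ± 0.22 in its stronger probe set and -0.10 ± 0.38 in the other. Akap12, a scaffold that ties PKA to the plasma membrane, had signals of 3324, 4135, 3495 and 2673 in KO hearts and 4266, 3385, 3489 and 3914 in WT hearts. Its difference was -0.15 ± 0.19, with KO 4 the lowest heart and WT 1 the highest. Akap1, the anchor on mitochondria, had -0.07 ± 0.29.

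Among the phosphodiesterases, Pde4a, an enzyme specific for cAMP, had signals of 9.10, 11.8, 23.2 and 14.7 in KO 1 to KO 4, against 17.9, 1.40, 7.20 and 6.94 in WT 1 to WT 4. WT 1 lay inside the KO range and the other 3 WT hearts below it. It was Present in 3 KO hearts and 0 WT hearts, so it entered the test only through the genotype in which its signals were higher, and its difference is given as a description. That difference was 0.35 ± 0.23 (SE), 0.59 within the 541 hearts and 0.60 within the 569 hearts. These are signals near the floor, and with 1 in place of 16 added before the logarithm the difference was 1.01 ± 0.60.

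Pde8a, a cAMP-specific enzyme of high affinity, had the lowest difference of the 32 members. It had signals of 156, 357, 209 and 170.4 in KO 1 to KO 4, against 362, 215, 239.9 and 314 in WT 1 to WT 4. Of the KO hearts 3 lay below the whole WT range, and KO 2 lay near its top. The difference was -0.36 ± 0.31 (SE, unadjusted p = 0.246), -0.50 within the 541 hearts and 0.13 within the 569 hearts, so its sign was not kept. Pde4b had -0.19 ± 0.29, with 839 in WT 4 the highest of its 8 signals. Pde7a had 0.01 ± 0.31, and of its 3 further probe sets 2 were below 0, at -0.13 and -0.15. Pde1a, which calcium and calmodulin activate, and Pde3a, the enzyme that heart muscle inhibitors such as milrinone target, were weak, with signals under 24 in every heart and differences of -0.08 ± 0.22 and 0.07 ± 0.22. Pde2a, which cyclic GMP stimulates, was Present in WT 3 alone, at 21.4.

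Downstream of the kinase, Creb1, the transcription factor that PKA phosphorylates, had signals of 127, 218, 203 and 142 in KO 1 to KO 4, against 146, 195, 310.4 and 174 in WT 1 to WT 4. WT 3 was the highest and the other hearts overlapped, with a difference of -0.22 ± 0.31. Of its other 2 tested probe sets, 1 had the opposite sign at 0.03. Crem, a relative that also yields a repressor form, had -0.12 ± 0.27, and Crebbp, the coactivator that binds phosphorylated Creb1, had 0.10 ± 0.26. Rapgef3, which codes for the exchange factor Epac that cAMP opens, had signals of 24.1, 21.9, 20.9 and 6.05 in KO hearts and 20.5, 2.61, 13.7 and 18.9 in WT hearts. KO 4 and WT 2 fell well below the rest, the difference was 0.20 ± 0.25, and a second weak probe set had -0.06 ± 0.21. Ppp1r1a, an inhibitor of protein phosphatase 1 that acts once PKA has phosphorylated it, had 0.08 ± 0.37, although its 8 signals fell into a high and a low set.

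**Figure D2:**
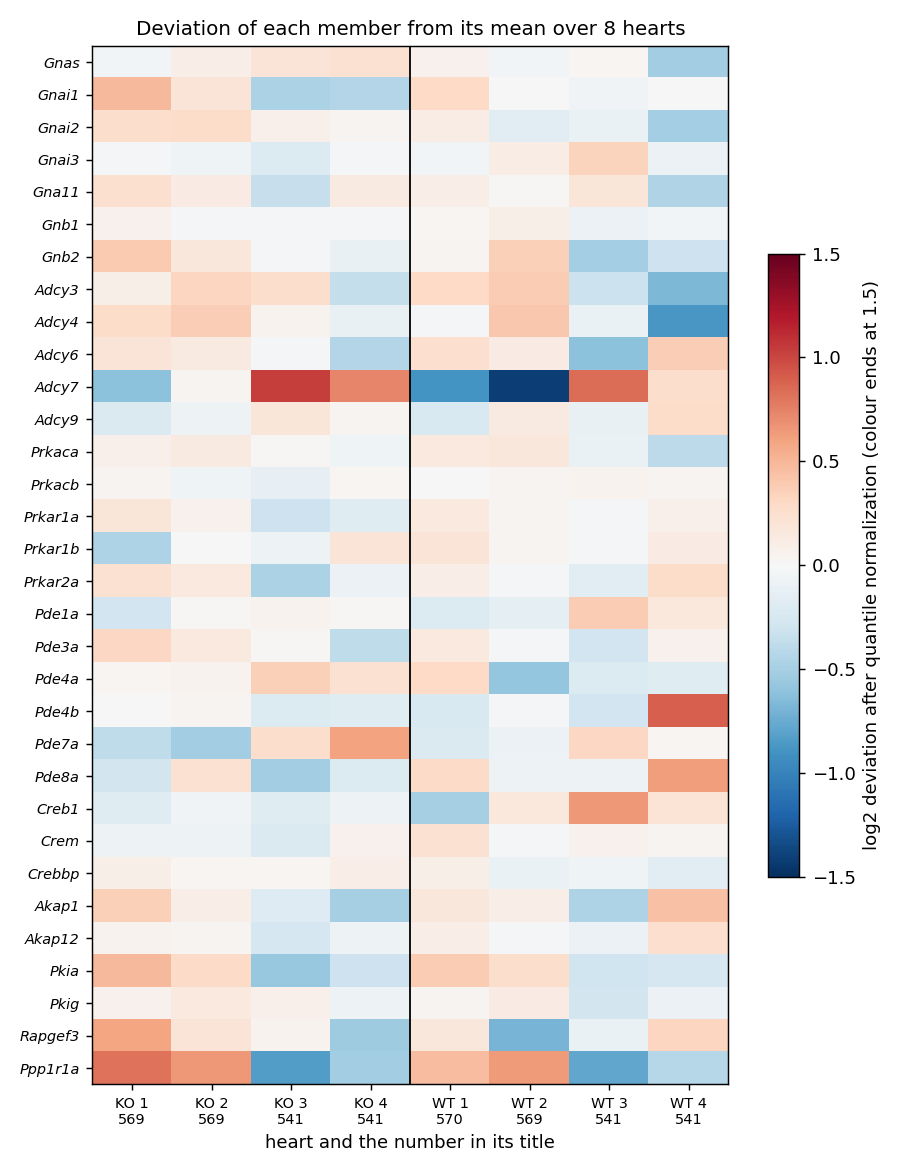
Deviation of each member from its own mean over the 8 hearts (log2 after quantile normalization), KO hearts left and WT hearts right of the line, with each heart's title number below it. Ppp1r1a and Pkia are below their means in the 541 hearts of both genotypes, and Adcy7 is above its mean there.

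The second comparison asked how the members differ by the number in the title, with genotype as a covariate. It was made because that number split the hearts more than the genotype did. That split was seen in these same data. The p-values for the title number therefore describe a split already known and are not an independent test of it. As deposited, 2 of the 32 members passed (adjusted p under 0.05 by limma), against 2.95% of all probe sets. They were Ppp1r1a, lower in 541 hearts as were 1.12% of all probe sets, and Adcy7, higher in 541 hearts as were 1.83%. After quantile normalization 3 passed, against 3.06% of all probe sets. They were Ppp1r1a and Pkia, lower as were 1.41%, and Adcy7, higher as were 1.66%. An unadjusted p under 0.05 was found in 4 members as deposited, against 11.1% of all probe sets, and in 11 after quantile normalization, against 21.6%. Differences were below 0 in 24 of the 32 as deposited, against 5387 of all 9126 genes. The median was -0.18 against -0.06 over all genes. After quantile normalization differences were below 0 in 23 of the 32, against 4717 of the 9126 genes, and the medians were -0.11 and -0.01. In the fit as deposited the estimate of prior degrees of freedom was infinite, so a probe set's own spread did not enter its test.

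Ppp1r1a gave the clearest split. Its signals were 87.8, 75.4, 77.6 and 77.4 in the 541 hearts KO 3, KO 4, WT 3 and WT 4, against 196, 274, 229 and 205 in KO 1, KO 2, WT 1 and WT 2. No 541 heart came near another heart. The means were 79.5 ± 5.58 in 541 hearts and 226 ± 34.7 in the others (SD, n = 4 each). The exact two-sided permutation p was 0.0286, the smallest that 4 against 4 hearts can give. That p takes no account of Ppp1r1a being picked as the clearest split among the tested members. The permutations and fits by title number, here and for the genes below, take hearts as independent. Whether hearts that share a number are independent cannot be told from the labels. The log2 difference, 541 minus the others, was -1.33 ± 0.31 (SE, adjusted p = 0.00153), and -1.29 ± 0.15 after quantile normalization (adjusted p = 0.0125). It was -1.35 within KO and -1.32 within WT hearts. As deposited it passed whichever heart was left out. After quantile normalization it passed in 5 of 8 such fits, with an adjusted p of 0.0504 to 0.0519 without KO 1, KO 4 or WT 1.

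Adcy7 went the other way. Its signals were 1491, 812, 1144 and 616 in KO 3, KO 4, WT 3 and WT 4, against 311, 778, 388 and 206 in KO 1, KO 2, WT 1 and WT 2. KO 2 lay above WT 4, so the sets overlapped by 1 heart (exact two-sided permutation p = 0.0571). The log2 difference was 1.32 ± 0.29 (SE, adjusted p = 0.000494), and 1.44 ± 0.21 after quantile normalization (adjusted p = 0.0162). It was 1.13 within KO and 1.52 within WT hearts. Without WT 3 the adjusted p as deposited was 0.102, with a difference of 1.11. After quantile normalization it passed in 3 of 8 fits that left out a heart, and the adjusted p lay between 0.0519 and 0.0695 without KO 1, KO 3, KO 4, WT 1 or WT 2. Its other 2 tested probe sets had differences of 0.65 and 0.91 as deposited.

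Pkia had signals of 370.4, 293, 384 and 308 in KO 3, KO 4, WT 3 and WT 4, against 520.5, 691, 720.2 and 518 in KO 1, KO 2, WT 1 and WT 2. The sets did not overlap, as for 2 of the 32 members (Ppp1r1a and Pkia) and for 5.17% of all probe sets. Its difference was -0.82 ± 0.30 as deposited (SE, adjusted p = 0.133) and -0.71 ± 0.12 after quantile normalization (adjusted p = 0.0245). With a heart left out after quantile normalization, Pkia passed in 1 of 8 fits, the one without WT 4. In the others the adjusted p reached at most 0.104.

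**Figure D3:**
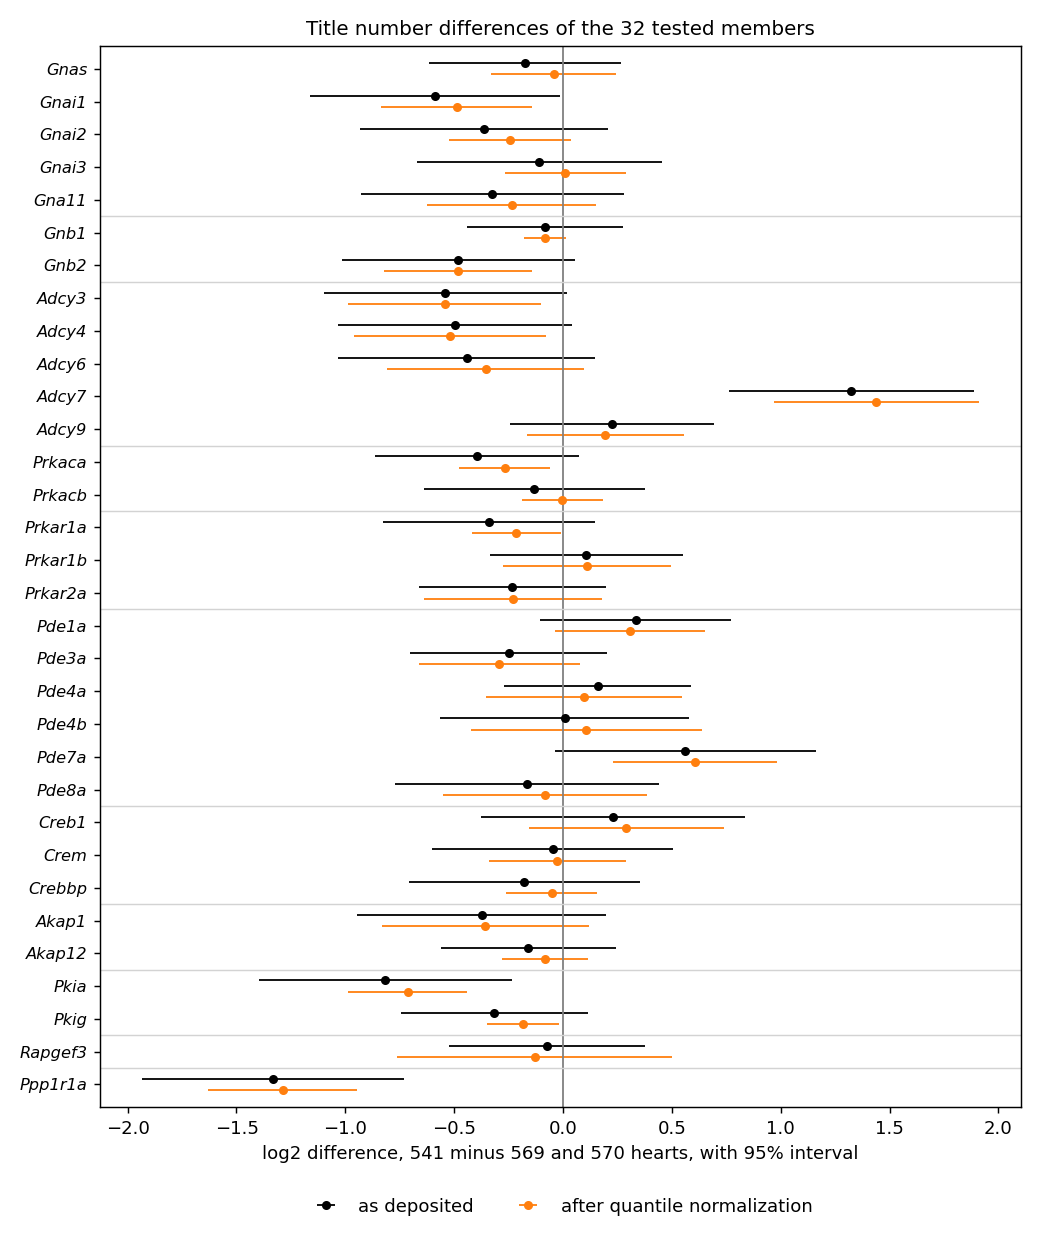
Log2 difference, 541 hearts minus 569 and 570 hearts, of the 32 tested members in order of role, with 95% intervals (n = 4 each, genotype as covariate), as deposited (black) and after quantile normalization (orange). Ppp1r1a at -1.33 and Adcy7 at 1.32 lie farthest from 0.

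Below those genes, none of the others passed in either fit, and their values are given as such. Gnai1 had -0.59 ± 0.29 as deposited (SE, adjusted p = 0.422) and -0.49 ± 0.15 after quantile normalization (adjusted p = 0.105). In that probe set the sets overlapped, with WT 3, at 508, above WT 2, at 477. The second strong Gnai1 probe set had signals of 254, 202, 265 and 231 in KO 3, KO 4, WT 3 and WT 4, against 321, 439, 374 and 324 in KO 1, KO 2, WT 1 and WT 2, without overlap. The remaining tested Gnai1 probe set, with signals under 38 in all 8 hearts, had 0.08 ± 0.25 as deposited and 0.08 ± 0.16 after quantile normalization, the opposite sign. Pde7a, a cAMP-specific phosphodiesterase common in immune cells, had signals of 189.9, 157, 164 and 100.3 in 541 hearts and 69.7, 97.2, 118 and 104 in the others. WT 4 lay among the others, and the difference after quantile normalization was 0.61 ± 0.17 (adjusted p = 0.0779). All 4 Pde7a probe sets had differences above 0, between 0.08 and 0.61 as deposited, and the one at 0.61 had an adjusted p of 0.0434 after quantile normalization. Pkig was split between its probe sets. The stronger had -0.32 ± 0.22, and the weaker had -1.10 ± 0.30 as deposited (adjusted p = 0.0126) and an adjusted p of 0.102 after quantile normalization. Prkaca had -0.39 ± 0.24 and Gnb2 -0.48 ± 0.27 as deposited, with adjusted p of 0.602 and 0.550. Gnas had -0.17 ± 0.23, Gnb1 -0.08 ± 0.18 and Prkacb -0.13 ± 0.26, and after quantile normalization Prkacb and Gnas lay within 0.05 of 0. Of 25 further probe sets of the members, 7 had the opposite sign to the member's own as deposited. Apart from that of Gnai1 they were those of Gnas at 0.29 ± 0.28, Gna11 at 0.25 ± 0.28, against -0.32, and Gnai3 at 0.12 ± 0.28, against -0.11. The others were those of Adcy3 at 0.06 ± 0.22, against -0.54, Adcy9 at -0.11 ± 0.22, against 0.22, and Prkar1a at 0.03 ± 0.31, against -0.34.

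**Figure D4:**
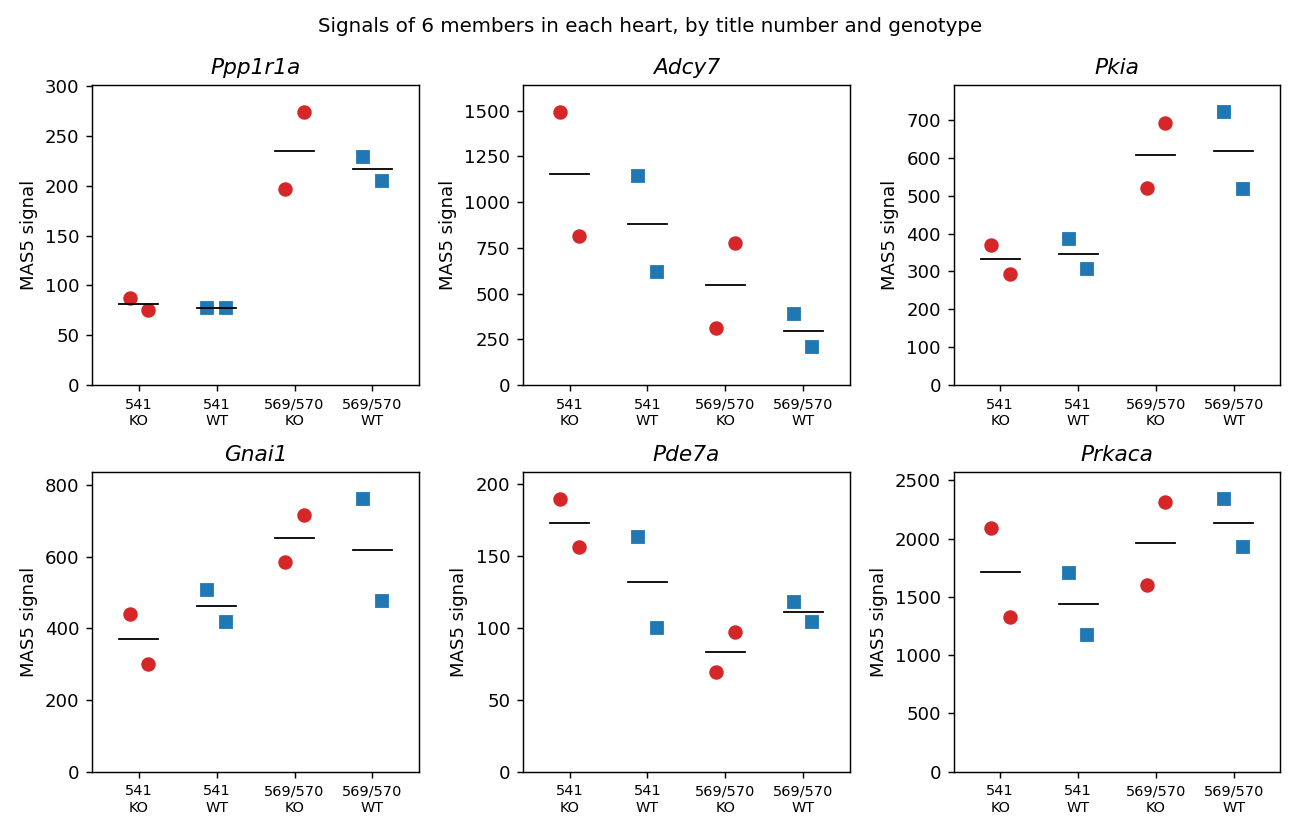
MAS5 signal of 6 members in each heart (red circles KO, blue squares WT, bars the mean of the hearts shown), with 541 hearts left of 569 and 570 hearts. For Ppp1r1a the 541 hearts lie between 75.4 and 87.8 and the others between 196 and 274.

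Markers of other cells moved with the title number beside these genes. Over all probe sets, 1.83% were higher and 1.12% lower in 541 hearts as deposited (adjusted p under 0.05 by limma). After quantile normalization these shares were 1.66% and 1.41%. Of 6 tested erythroid markers 4 were higher in 541 hearts as deposited (adjusted p under 0.05 by limma) and 5 after quantile normalization, with median differences of 1.25 and 1.33. Their summed signal was 14080 to 22636 in 541 hearts and 8962 to 17188 in the others, and all 6 were Present in every heart. Alas2, the first enzyme of heme synthesis in red cells, had signals of 1267, 565, 629 and 259 in KO 3, KO 4, WT 3 and WT 4, against 78.3, 436, 94.2 and 44.8 in KO 1, KO 2, WT 1 and WT 2. The 8 hearts stood in the same order for Alas2 as for Adcy7, from WT 2 at the bottom to KO 3 at the top. Alas2 was picked after seeing the values, and each of the other tested erythroid markers had another order. Gata1 had WT 1, at 43.7, below KO 1, at 61.1, and Slc4a1 had KO 2, at 3258, above WT 3, at 2839. Of 10 cardiomyocyte markers 4 were lower in 541 hearts as deposited and 2 after quantile normalization, with median differences of -0.58 and -0.56. Their summed signal was 21597 to 36901 in 541 hearts and 37039 to 44945 in the others, without overlap. Tnni1, the slow troponin of embryonic heart muscle, had signals of 1085, 712, 612 and 943 in 541 hearts and 1677, 2127, 2196 and 1659 in the others, the same split of hearts as for Ppp1r1a and Pkia. Of 5 macrophage markers, 4 were tested and 1 was higher in 541 hearts in both fits, with a summed signal of 75.2 to 451 in 541 hearts and 44.5 to 122 in the others. Of 8 tested neuron and neural crest markers 3 were higher in 541 hearts as deposited and 0 after quantile normalization. The list's sum was 1638 to 1743 in KO 3, KO 4 and WT 3 and 158 in WT 4, against 169.9 to 394 in the others. Crabp1, at 1074 to 1283, made up most of it in KO 3, KO 4 and WT 3. Pax3 was also high in WT 3, at 204, but Tubb3 was at 10.8 there. Sox2 and Nefm were at 62.1 to 95.3 in KO 3 and KO 4, against 6.60 and 10.8 in WT 3. Of 4 tested liver and endoderm markers 3 were higher as deposited and 0 after quantile normalization, with a high sum in WT 3 alone. Of 4 tested branchial and skeletal muscle markers 2 were higher as deposited, and of 6 cushion mesenchyme markers 1, with 0 of either after quantile normalization. Their sums overlapped, at 118 to 294 in 541 hearts and 132 to 230.1 in the others for muscle, and at 1045 to 3707 in 541 hearts and 1132 to 1993 in the others for mesenchyme. Of 8 endothelial and endocardial markers 0 passed as deposited by limma, with an unadjusted p under 0.05 in 2, and 1 was lower after quantile normalization, with sums of 2016 to 3614 in 541 hearts and 3567 to 4843 in the others. Of 5 epicardial markers 0 had an unadjusted p under 0.05 in either fit for the title number by limma. The ratio of 5' to 3' actin signal, a measure of RNA integrity, was 0.390, 0.401, 0.407 and 0.517 in KO 3, KO 4, WT 3 and WT 4, against 0.483 to 0.527 in the others. For KO minus WT, 0 of these markers passed in either fit. Erythroid markers had a median of 0.81 in both fits, with an unadjusted p under 0.05 by limma in 3 of 6 as deposited. Neuron and neural crest markers had medians of 0.76 and 0.75, with 3 of 8 as deposited, against 1.33% of all probe sets. After quantile normalization 0 of either list had one. Liver and endoderm markers had -1.14 and 1 of 4 as deposited, and the remaining lists had 0. The part of these cell types or of RNA quality in the values of Adcy7, Ppp1r1a and Pkia was not tested, and what the title number stands for cannot be told from the labels.

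**Figure D5:**
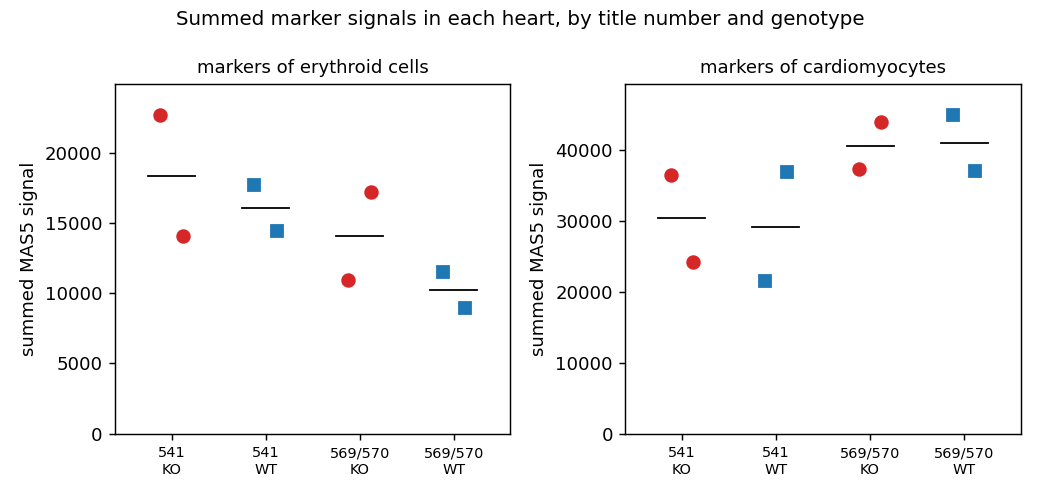
Summed MAS5 signal of 6 erythroid markers (left) and 10 cardiomyocyte markers (right) in each heart (red circles KO, blue squares WT, bars the mean of the hearts shown), with 541 hearts left of 569 and 570 hearts. Cardiomyocyte sums, not scaled between arrays, are at most 36901 in 541 hearts and at least 37039 in the others.

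The third comparison asked whether the genotype difference itself changed with the title number, in 7 hearts of the numbers 541 and 569. No member passed as deposited, against 0.233% of all probe sets, and none after quantile normalization, against 0% of all probe sets. Rapgef3 had the smallest unadjusted p as deposited, 0.0140, against 2.58% of all probe sets with one under 0.05, and its adjusted p was 0.99997 by limma. Its genotype difference was -0.18 within 541 and 1.07 within 569 hearts, and the value within 569 hearts rests on the WT 2 signal of 2.61, the lone WT heart of that number. The prior degrees of freedom of the interaction fit as deposited were infinite too, so a probe set's own spread did not enter its test. Gnai1 had -0.32 within 541 and 0.43 within 569 hearts, with an unadjusted interaction p of 0.0269 after quantile normalization, where 5.89% of all probe sets had one under 0.05, and an adjusted p of 0.751 by limma.

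Other genes of the pathway gave no genotype call either. Of 80 genes in 8 lists, 61 were annotated and 47 tested, and 0 passed for KO minus WT as deposited or after quantile normalization. Among 11 tested genes that CREB is known to activate, Fos, an immediate early gene, had an unadjusted p of 0.0288 and a difference of -0.98 ± 0.43. Its signals were 294, 334, 339.8 and 250.4 in KO hearts and 786, 164, 439 and 2379 in WT hearts, so WT 4 alone was far above the rest and WT 2 was the lowest. Nr4a1, another such gene, had -0.57 ± 0.29, also with WT 4 highest at 80.8. The list's median was -0.12, against 0.02 over all genes. Gng3 and Gng11, which code for G protein gamma subunits, had 0.46 ± 0.23 and 0.39 ± 0.31, with unadjusted p of 0.0267 and 0.0285 by limma after quantile normalization. Rgs5, which shortens the active state of G protein alpha subunits, had 0.91 ± 0.48 and signals of 96.3, 740.1, 369 and 430.0 in KO hearts against 579.8, 215, 141 and 38.7 in WT hearts. Crtc2, a coactivator of Creb1, had 0.36 ± 0.23, with signals under 32 in every heart.

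By title number 2 of the 47 passed as deposited, against 2.95% of all probe sets. Both were higher in 541 hearts, as were 1.83% of all probe sets. Gna14, an alpha subunit that activates phospholipase C, had signals of 169.9, 97.8, 218 and 21.5 in KO 3, KO 4, WT 3 and WT 4, against 11.6, 37.9, 47.9 and 41.7 in KO 1, KO 2, WT 1 and WT 2. WT 4 lay among the others, the difference was 1.27 ± 0.29 (SE, adjusted p = 0.000938 by limma), and the adjusted p after quantile normalization was 0.135. Egr1, an immediate early transcription factor, had 0.88 ± 0.24 (adjusted p = 0.0113, and 0.149 after quantile normalization). The sets overlapped for Egr1 too, with WT 1, at 2695, above KO 3, KO 4 and WT 3. WT 4 was its highest heart, at 4540. After quantile normalization 1 of the 47 passed, against 3.06% of all probe sets. It was Akap8, a nuclear anchor of PKA, with 0.84 ± 0.12 (adjusted p = 0.0156 by limma). Gnao1, an alpha subunit typical of neurons that heart also expresses, had -0.82 ± 0.31 and an adjusted p of 0.154. Popdc3, a cAMP-binding membrane protein of heart and skeletal muscle, had -0.79 ± 0.31 and an adjusted p of 0.189.

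Detection differed among the isoforms of each family. Of the 32 members tested, 25 were Present in all 8 hearts, including Gnas, the 3 inhibitory alpha subunits, both beta subunits, both catalytic subunits and Prkar1a. Prkar2a was Present in 7, Adcy9, Prkar1b and Rapgef3 in 6, Pde1a and Pde3a in 5 and Pde4a in 3. Signals of different probe sets are not on 1 scale, so levels of isoforms were not set against each other. Probe sets of Gnas, Gnai1, Adcy7, Adcy9 and Pkig used here carry a name ending that marks probes shared among transcripts, so their signals may include related RNAs.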

How the data were processed

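The authors deposited MAS5 signal intensity values on a linear scale and detection calls (Present, Marginal or Absent), per the file headers. Their MAS5 version, scaling target and build are not given in the sources used here. The authors' deposited table also gives a signed fold score (WT over KO) and an unadjusted p-value per probe set. Their deposited quality report gives ratios of control signals and the fraction of probe sets called Present, per the file headers. Gene names came from the platform annotation, brought up to date by gene identifier.

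KO minus WT was fitted on log2(signal + 16), with no further normalization, with limma 3.58.1 (lmFit, eBayes with an intensity trend, R 4.3.3), on the 16292 probe sets Present in at least 3 of 8 arrays. Benjamini-Hochberg adjustment covered all of them, and a call is an adjusted p under 0.05. The title number was fitted with genotype as covariate, and its interaction with genotype without the 570 heart. A gene took its tested probe set of highest mean log2 signal. Single values were compared by exact two-sided permutation over 70 assignments of 4 against 4 hearts. Quantile normalization, median centring, pseudocounts of 1 and 64, other filters, the title number as a block or within it, and leaving out each heart were the alternatives. Arrays give no read depth, and their number limits the precision.

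Every member is reported by that probe set. Values in every heart are given for the 10 members with the smallest unadjusted p, the 5 of widest SD among the rest, Gnas, Prkaca and Prkar1a. Other probe sets are given where their sign differs in the fits as deposited, for genotype and for title number, and up to 2 genes per pathway list by unadjusted p. Other values in every heart (Pde7a, further probe sets and markers) were chosen after seeing them. The members and lists were chosen with earlier results of these data known. The fit of KO minus WT after quantile normalization was tested on simulated data. The fits as deposited, by title number and of the interaction were not.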

Additional observations from a re-analysis of the deposited data

Results flagged for a closer look

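In 64 groups of 4 hearts (32 members in 2 genotypes), 3 hearts lay far from the other 3 of their group by Dixon's test, whose 95% level flags about 1 group in 20 by chance. All are weak signals. Prkar1b had 4.54 in KO 1, against 15.01 to 17.1 in the other KO hearts. Prkar1b had 19.4 in WT 1, against 14.1 to 14.6 in the other WT hearts. Rapgef3 had 6.05 in KO 4, against 20.9 to 24.1 in the other KO hearts.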

How the results depend on the processing

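No member passed for genotype under any alternative, and the median member difference lay between -0.09 and 0.14. Over all 16292 probe sets, 0 were called as deposited, 2 with a Present call in all 8 arrays, 40 with the title number as a block, 60 within 541, 3 within 569, and 0 to 72 with a heart left out (72 without WT 3, 30 without KO 1). Members with an unadjusted p under 0.05 numbered 0 as reported, 2 with the title number as a block (3.46% of all probe sets), 4 with that block after quantile normalization (4.6% of all probe sets), 1 within 569 (1.37%), 1 over all 57 probe sets (1.33%), and 0 to 1 with a heart left out (0.951% to 3.74%). The 4 were Gnai2, Adcy7, Creb1 and Pde4a, the last of which entered the test through KO hearts alone, with an adjusted p of at least 0.970 by limma. Members whose genotypes did not overlap numbered 0, 4 within 541, against 20.2% of all probe sets, 11 within 569, where KO 1 and KO 2 face WT 2 alone, against 39.6%, and 0 to 1 with a heart left out, against 1.03% to 2.16%. The alternatives for the title number were chosen after seeing the data, except quantile normalization. Members called there numbered 2 as reported, 0 within KO (0.773% of all probe sets), 1 within WT (1.16%) and 1 to 2 with a heart left out as deposited (0.798% to 4.76%). After quantile normalization they numbered 0 to 7 with a heart left out. The 7 were without WT 4, where 18.6% of all probe sets were called, and added Gnai1, Adcy6, Pde7a and Akap1. The number was 1 without KO 3 or WT 2 and 0 without KO 1, KO 4 or WT 1, and in the 7 fits other than that without WT 4 between 0.00614% and 0.822% of all probe sets were called. The cause of these moves was not tested, beyond the fewer hearts in each fit. For single members, 12 other values lost a call, 7 gained one and 1414 kept their side. The genotype sign was kept throughout by Adcy7, Creb1, Gnai2, Gnai3 and Pde4a. It changed at least once in the other 27 members, in 76 of 633 values. Numbers 1 to 4 given to the hearts follow accession order and pair nothing. The title numbers that both genotypes share gave the fits with a block. What limits these values is 4 hearts per group and, for Pde4a, Prkar1b, Prkar2a, Pde1a, Pde3a and Rapgef3, signal near background (log intensity over log background was 1.49 to 1.59).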
